A study of Mus musculus with 18 samples.

Results

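The 5 genes described here are Pou5f1, Sox2, Nanog, Sall4 and Utf1, a core set of genes of the pluripotent state in the mouse. They were found as the probe sets (groups of short array probes along a transcript) whose platform annotation gives that symbol alone. Each symbol had 1 probe set, so no choice between probe sets was needed, and the 5 genes are 5 of the 19938 genes measured in the series. They were followed over 6 groups of cell cultures with 3 arrays each, 18 arrays in all.

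The groups were undifferentiated ES 129SV cells (embryonic stem cells with the 129SV genetic background), undifferentiated adult 129SV cells, undifferentiated ES and adult cells with the background Stra8-EGFP/Rosa26 (called Stra8 here), and differentiated ES and differentiated adult cells, both 129SV. The series title names the adult cells as multipotent germline stem cells. No group was differentiated in the Stra8 background. The name Stra8-EGFP points to a green fluorescent reporter tied to Stra8, a germ cell gene that retinoic acid induces, but the labels give neither its construction nor the route of differentiation, the medium, the use of feeder cells or the age of the donor animals. The labels call the replicates biological without saying how many lines or cultures they came from, and the sample descriptions within a group share a tag whose meaning they do not state, so p-values measure the spread between these samples only.

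Pou5f1 (Oct4) is a POU-domain protein and Sox2 an HMG-box protein, which bind neighbouring DNA sites as a pair and maintain their own transcription. Nanog is a homeodomain protein that joins them at many of the same enhancers and stabilises self-renewal, and Sall4 is a zinc finger protein that binds Pou5f1 and Nanog. Utf1 is a chromatin-bound protein that depends on Pou5f1 and Sox2 for its transcription and is lost early when ES cells leave the pluripotent state. Sall4 and Utf1 are also known from undifferentiated spermatogonia of the testis, the cells from which adult germline stem cells are derived.

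Pou5f1 and Sox2 act on their own genes and on Nanog and Utf1 through paired sites. For this reason the 250 bases before the annotated start of the genes are shown, although paired sites can also lie outside them. The part of such sites in the changes on differentiation was not tested. The RefSeq promoter table (GRCm38.p6) matched 4 of the 5 genes, and Sall4 was not matched. Pou5f1 (probe set 10444853) is a protein-coding gene at chr17:35506032-35510777, Sox2 (10491477) at chr3:34649995-34652461, Nanog (10541524) at chr6:122707489-122714633, Sall4 (10490016) at chr2:168748332-168767201 and Utf1 (10558580) at chr7:139943856-139945112. The stretches below lie just before the starts of their genes, all on the plus strand, at chr17:35505782-35506031, chr3:34649745-34649994, chr6:122707239-122707488 and chr7:139943606-139943855. Capitals mark an octamer core, a Sox core or both.
Pou5f1: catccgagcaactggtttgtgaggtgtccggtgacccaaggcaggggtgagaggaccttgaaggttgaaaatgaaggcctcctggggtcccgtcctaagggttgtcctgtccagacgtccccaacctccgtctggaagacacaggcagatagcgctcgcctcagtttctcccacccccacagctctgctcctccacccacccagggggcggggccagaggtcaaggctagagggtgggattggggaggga
Sox2: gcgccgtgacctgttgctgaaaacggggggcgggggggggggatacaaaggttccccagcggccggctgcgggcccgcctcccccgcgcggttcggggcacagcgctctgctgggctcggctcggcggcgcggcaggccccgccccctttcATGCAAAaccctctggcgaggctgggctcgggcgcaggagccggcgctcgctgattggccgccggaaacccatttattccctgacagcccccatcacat
Nanog: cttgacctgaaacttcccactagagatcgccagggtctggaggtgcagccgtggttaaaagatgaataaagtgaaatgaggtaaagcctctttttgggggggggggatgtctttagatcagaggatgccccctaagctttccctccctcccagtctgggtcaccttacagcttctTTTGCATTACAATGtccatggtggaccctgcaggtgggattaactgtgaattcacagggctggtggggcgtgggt
Utf1: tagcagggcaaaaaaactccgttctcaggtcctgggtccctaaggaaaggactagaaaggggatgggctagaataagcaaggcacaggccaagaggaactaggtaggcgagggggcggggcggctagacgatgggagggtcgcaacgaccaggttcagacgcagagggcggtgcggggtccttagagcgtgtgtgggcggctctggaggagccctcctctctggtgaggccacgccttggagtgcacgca

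Both strands were searched for an octamer core (ATGCAAA), a Sox core (CATTGT), the composite of both (CATTGTNATGCAAA, which contains the other motifs) and a GC box (GGGCGG). The Nanog stretch held the composite on the minus strand, from 75 to 62 bases before the start. Over 32851 windows of the same length from all genes of the table, the composite was found in 2 windows (0.00609%), and both belonged to Nanog. Sox2 held an octamer core on the plus strand from 99 to 93 bases before its start, a motif present in 4.12% of all windows. The Sox core was in 10.7% of windows and, among the 4 genes, only in the Nanog stretch. GC boxes, present in 32.7% of windows, numbered 4 in Utf1, 2 in Sox2, 1 in Pou5f1 and 0 in Nanog. These are matches of letters and say nothing about binding. Sequence outside these stretches was not searched. The lack of the composite in the Pou5f1, Sox2 and Utf1 stretches therefore does not show that these genes lack paired sites.

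Arrays of the same group correlated across genes with a mean r between 0.9933 and 0.9978, and the medians of the arrays over all probe sets lay between 7.22 and 7.38. The third differentiated ES array had the lowest limma array weight of the 18 (0.153), and the changes that use it are also given without it. The first array of that group had the highest weight (5.09) and the second 0.493. Fits with array weights thus rest mostly on the first array for differentiated ES cells. Markers of undifferentiated ES cells, a list of 10 genes, had a mean level per array between 10.23 and 10.78 in the 4 undifferentiated groups. In differentiated ES cells it was 8.86 to 8.91, and in differentiated adult cells 9.29 to 9.39. Of the 10, 0 were called higher and 3 lower in adult than in ES 129SV cells (median -0.08). In the Stra8 background 0 were called higher and 7 lower in adult cells (median -0.30). The 14 markers of spermatogonial stem cells had array means between 7.97 and 8.11 in the 4 undifferentiated groups; against ES cells, 7 were called higher and 2 lower in adult 129SV cells, and 3 higher and 3 lower in adult Stra8 cells. Over all genes, 46.1% were called in the first of these comparisons and 28.3% in the second, at an adjusted p under 0.05. The 18 fibroblast markers, genes that feeder layers also express, had array means of 10.92 to 10.96 in 129SV ES cells, 10.01 to 10.08 in 129SV adult cells, 9.74 to 9.80 in Stra8 ES cells and 10.53 to 10.59 in Stra8 adult cells. Genes of the ES and endoderm marker lists recur in the gene lists described further on. In these bulk samples, fewer cells of a type and less RNA per cell cannot be told apart.

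**Figure D1:**
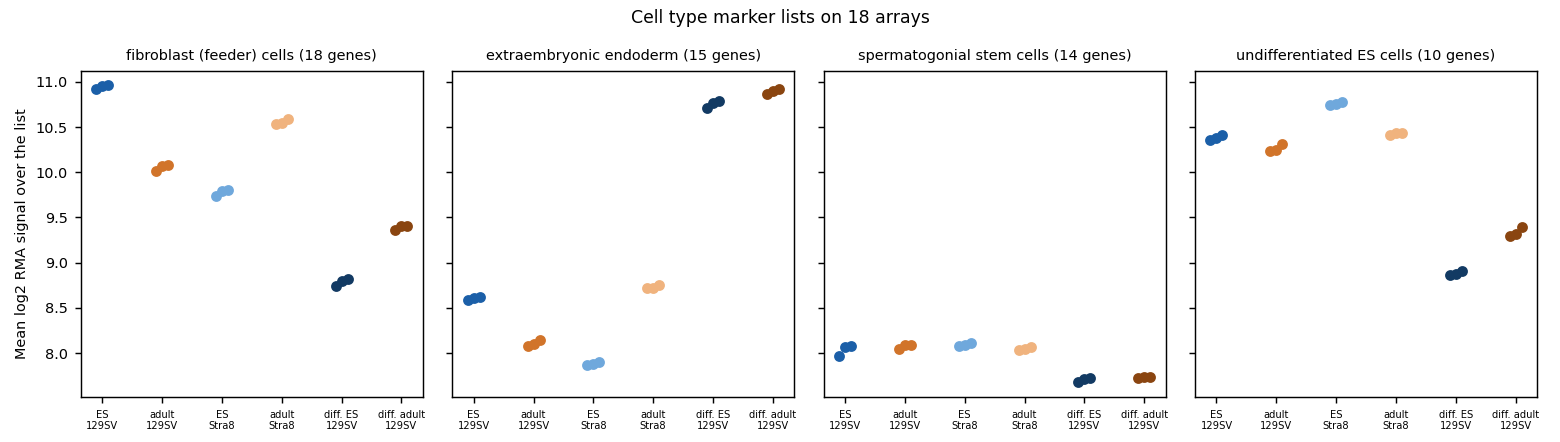
Mean log2 RMA signal over the genes of 4 marker lists (y axis) on each of the 18 arrays (points), by group (x axis). Markers of extraembryonic endoderm were highest in the differentiated groups (10.71 to 10.92), and fibroblast markers were highest in ES 129SV (10.92 to 10.96) and lowest in differentiated ES 129SV (8.74 to 8.82).

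Each of the 5 genes had a higher signal on every undifferentiated array than on any differentiated one, as did 11.8% of all genes. Levels are log2 signals after RMA, a method that corrects the background and normalises arrays, so 1 unit is a 2-fold difference. Over the 12 undifferentiated arrays, Pou5f1 ran from 12.23 through a median of 12.42 to 12.68, and over the 6 differentiated arrays from 9.19 through 9.82 to 10.21. The gap between the lowest undifferentiated and the highest differentiated array was 2.01 for Pou5f1, 1.41 for Sox2, 1.21 for Utf1, 0.40 for Sall4 and 0.07 for Nanog. These gaps mix backgrounds, since the undifferentiated arrays are of both and the differentiated arrays all 129SV. For Nanog the lowest undifferentiated array was an adult Stra8 array (11.51). Within 129SV the lowest undifferentiated Nanog array read 11.82 and the highest differentiated one 11.44. Detection calls and background levels were not used here, so no level can be called absent, and levels are not set against each other between genes.

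**Figure D2:**
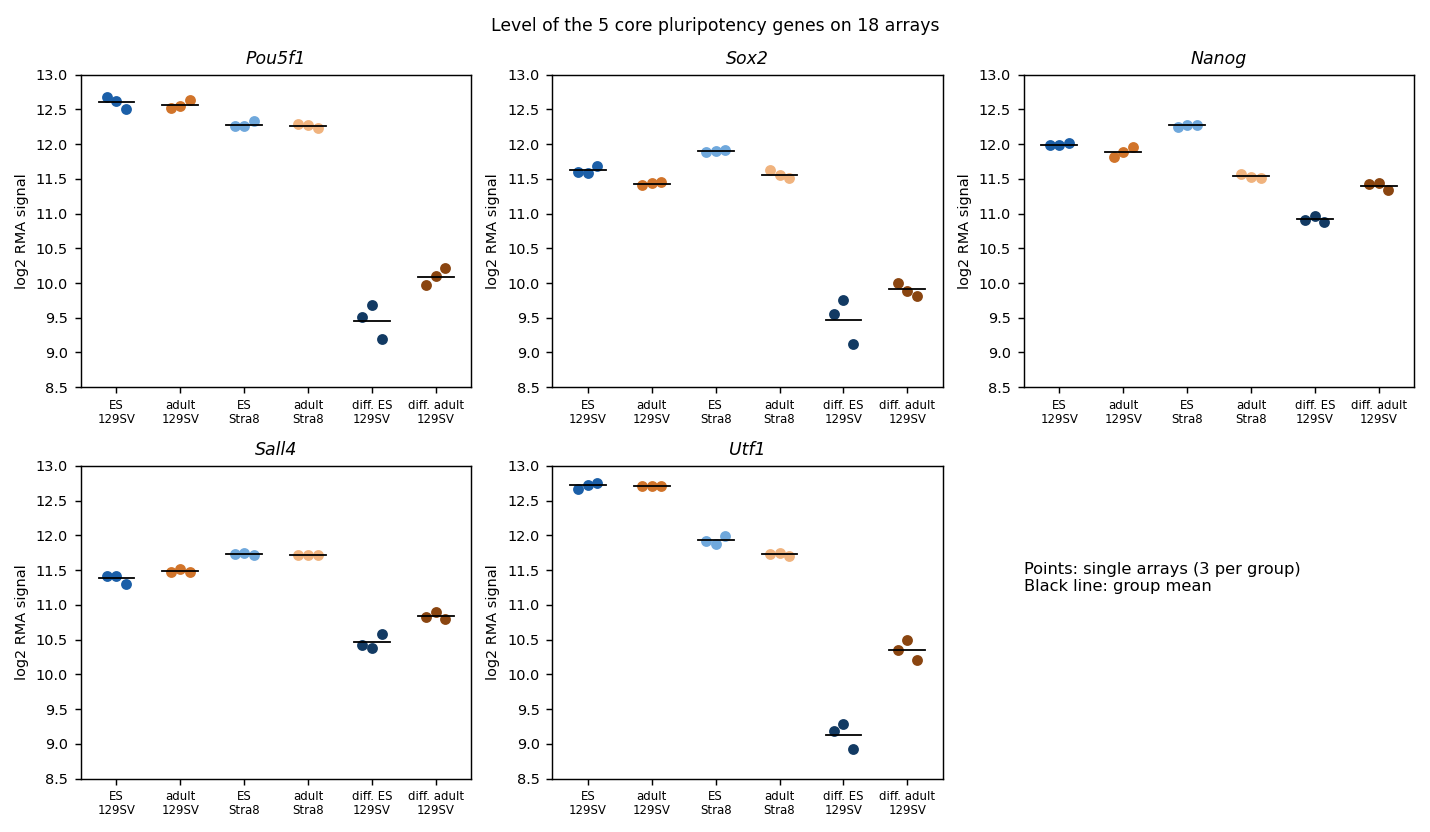
Level of each gene (y axis, log2 RMA signal) on the 18 arrays (points), by group (x axis), with the group mean as a black line. Nanog in adult Stra8 cells (11.54) lies close to its level in differentiated adult cells (11.40), while the other 4 genes show a wider step.

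Pou5f1 was measured at 12.68, 12.62 and 12.51 on the arrays of ES 129SV, 12.52, 12.54 and 12.63 on those of adult 129SV, 12.26, 12.26 and 12.33 in ES Stra8, and 12.29, 12.27 and 12.23 in adult Stra8. It was at 9.51, 9.68 and 9.19 in differentiated ES and at 9.97, 10.10 and 10.21 in differentiated adult cells. The arrays overlapped between ES and adult cells of each background, whereas both 129SV groups lay above both Stra8 groups. Each of the other steps in the order of its 6 group means was free of overlap. Such a lack of overlap was common: between adult and ES 129SV arrays, 56.8% of all genes showed it in either direction. For most other steps in the orders given here the share of all genes was not counted.

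Sox2, the partner of Pou5f1, was at 11.60, 11.58 and 11.68 on the arrays of ES 129SV, 11.41, 11.44 and 11.45 on those of adult 129SV, 11.88, 11.90 and 11.92 in ES Stra8, and 11.62, 11.56 and 11.51 in adult Stra8. After differentiation the arrays read 9.55, 9.76 and 9.12 for ES and 10.00, 9.89 and 9.82 for adult cells. ES Stra8 was the highest group, and the next groups in the order, ES 129SV and adult Stra8, overlapped. Its spread was widest in differentiated ES cells (SD 0.33, n = 3), where replicate 3 was the lowest array.

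Nanog was at 11.98, 11.98 and 12.01 on the arrays of ES 129SV, 11.82, 11.89 and 11.96 on those of adult 129SV, 12.25, 12.28 and 12.28 in ES Stra8, and 11.57, 11.53 and 11.51 in adult Stra8. It was at 10.91, 10.97 and 10.88 in differentiated ES and at 11.42, 11.44 and 11.34 in differentiated adult cells. No neighbouring groups in its order overlapped, from ES Stra8 at the top down to differentiated ES cells. The share of all genes with no overlap along their whole order was not counted. The mouse genome holds Nanog pseudogenes close to it in sequence, and whether they add to this probe set was not tested.

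Sall4 was at 11.42, 11.42 and 11.30 on the arrays of ES 129SV, 11.47, 11.52 and 11.47 on those of adult 129SV, 11.73, 11.74 and 11.72 in ES Stra8, and 11.72, 11.71 and 11.71 in adult Stra8. It fell to 10.42, 10.38 and 10.58 in differentiated ES and to 10.82, 10.90 and 10.80 in differentiated adult cells. Both Stra8 groups lay above both 129SV groups, the reverse of the order for Pou5f1. ES Stra8 and adult Stra8 differed by 0.02, a difference that was not called (limma adjusted p = 0.871). Their arrays met at 11.72 as rounded here and were free of overlap only in further digits.

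Utf1 was at 12.67, 12.73 and 12.75 on the arrays of ES 129SV and at 12.71 on each adult 129SV array, but at 11.92, 11.88 and 11.99 in ES Stra8 and 11.73, 11.74 and 11.70 in adult Stra8. Its differentiated levels were 9.18, 9.28 and 8.93 for ES and 10.35, 10.49 and 10.20 for adult cells. The 129SV groups overlapped each other and stood clear above the Stra8 groups. Over the 4 undifferentiated group means its span, 0.99, was the widest of the 5 genes, followed by Nanog (0.74), Sox2 (0.47), Sall4 (0.35) and Pou5f1 (0.34).

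All 5 genes were lower in differentiated than in undifferentiated ES 129SV cells. The log2 change was -3.59 ± 0.08 for Utf1, a 12-fold fall, and -3.14 ± 0.10 for Pou5f1 (8.82-fold). It was -2.14 ± 0.11 for Sox2 (4.42-fold), -1.07 ± 0.05 for Nanog (2.1-fold) and -0.92 ± 0.06 for Sall4 (1.89-fold). The value after each ± is the standard error from limma with 3 arrays per group. Limma's adjusted p (Benjamini-Hochberg over all genes) ran from 1.27e-15 for Utf1 to 3.58e-10 for Sall4. All 5 were called lower at an adjusted p under 0.05, where 27.3% of all genes were called lower, 27.9% higher and 55.2% in either direction. Without the third differentiated ES array the changes were -3.49 for Utf1, -3.01 for Pou5f1, -1.96 for Sox2, -1.05 for Nanog and -0.98 for Sall4, all called. Counted from the largest fall among 19938 genes, Utf1 stood at place 70, Pou5f1 at 112, Sox2 at 271, Nanog at 1220 and Sall4 at 1542.

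In adult 129SV cells the same 5 genes fell, by less for each. The log2 change was -2.47 ± 0.10 for Pou5f1 (5.55-fold, limma adjusted p = 1.23e-12) and -2.37 ± 0.08 for Utf1 (5.15-fold, 2.42e-13). It was -1.53 ± 0.11 for Sox2 (2.88-fold), -0.65 ± 0.06 for Sall4 (1.56-fold) and -0.49 ± 0.05 for Nanog (1.4-fold, adjusted p = 2.07e-07). Among all genes, 32.2% were called lower, 27.5% higher and 59.7% in either direction. The median change of the 5 genes was -2.14 in ES and -1.53 in adult cells, against 0.05 and -0.08 for all genes. Fibroblast markers moved with this comparison too: 17 of 18 were lower and 1 higher in differentiated ES cells (median -2.16), and 14 lower and 4 higher in differentiated adult cells (median -0.68). Markers of extraembryonic endoderm rose in 14 of 15 in ES and 13 of 15 in adult cells, and 1 fell in adult cells. The part of these cell types in the falls was not tested.

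Differentiated adult cells had higher levels of all 5 genes than differentiated ES cells. Utf1 was higher by 1.22 ± 0.08 (2.32-fold, limma adjusted p = 1.04e-08), Pou5f1 by 0.63 ± 0.10 (1.55-fold, 7.83e-05) and Nanog by 0.48 ± 0.05 (1.39-fold, 1.54e-06). Sox2 was higher by 0.43 ± 0.11 (1.35-fold, 0.00558) and Sall4 by 0.38 ± 0.06 (1.30-fold, 6.35e-05). The adult arrays lay above the ES arrays without overlap for all 5, as they did for 21.5% of all genes. Among all genes, 19.4% were called higher in this comparison and 32.2% in either direction. Replicate 3 of differentiated ES cells was the lowest array for Pou5f1, Sox2, Nanog and Utf1 and the highest for Sall4. Without it all 5 were still called, with Utf1 at 1.12, Pou5f1 at 0.50, Nanog at 0.46, Sall4 at 0.44 and Sox2 at 0.25 (adjusted p = 0.0096). The call of Sox2 was lost in a fit to these 6 arrays alone (0.43, adjusted p = 0.106). Fibroblast markers were higher in 14 of 18 and lower in 1 (median 0.35), and endoderm markers higher in 8 of 15 and lower in 3 (median 0.22). Markers of undifferentiated ES cells were higher in 6 of 10 and lower in 1 (median 0.36). The part of these cell types in the difference was not tested.

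Tested as a difference between responses (adult minus ES), the fall on differentiation was smaller in adult cells for each of the 5 genes. The difference was 1.22 ± 0.11 for Utf1 (limma adjusted p = 2.56e-07), 0.67 ± 0.14 for Pou5f1 (0.000755), 0.61 ± 0.15 for Sox2 (0.00373), 0.58 ± 0.07 for Nanog (4.99e-06) and 0.28 ± 0.08 for Sall4 (0.0102). The background was 24.2% of genes called positive and 45.7% called in either direction. Without replicate 3 of differentiated ES cells the values were 1.12, 0.53, 0.44, 0.56 and 0.34, all called. Fibroblast markers were positive in 17 of 18 and negative in 1 in the same difference (median 1.27), and endoderm markers were positive in 11 of 15 and negative in 3 (median 0.80). The part of either in it was not tested. After quantile normalisation Sall4 was at 0.23 with an adjusted p of 0.0609. The comparisons of differentiation share their arrays with each other and with the comparison of differentiated cells, so these values are not separate evidence.

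**Figure D3:**
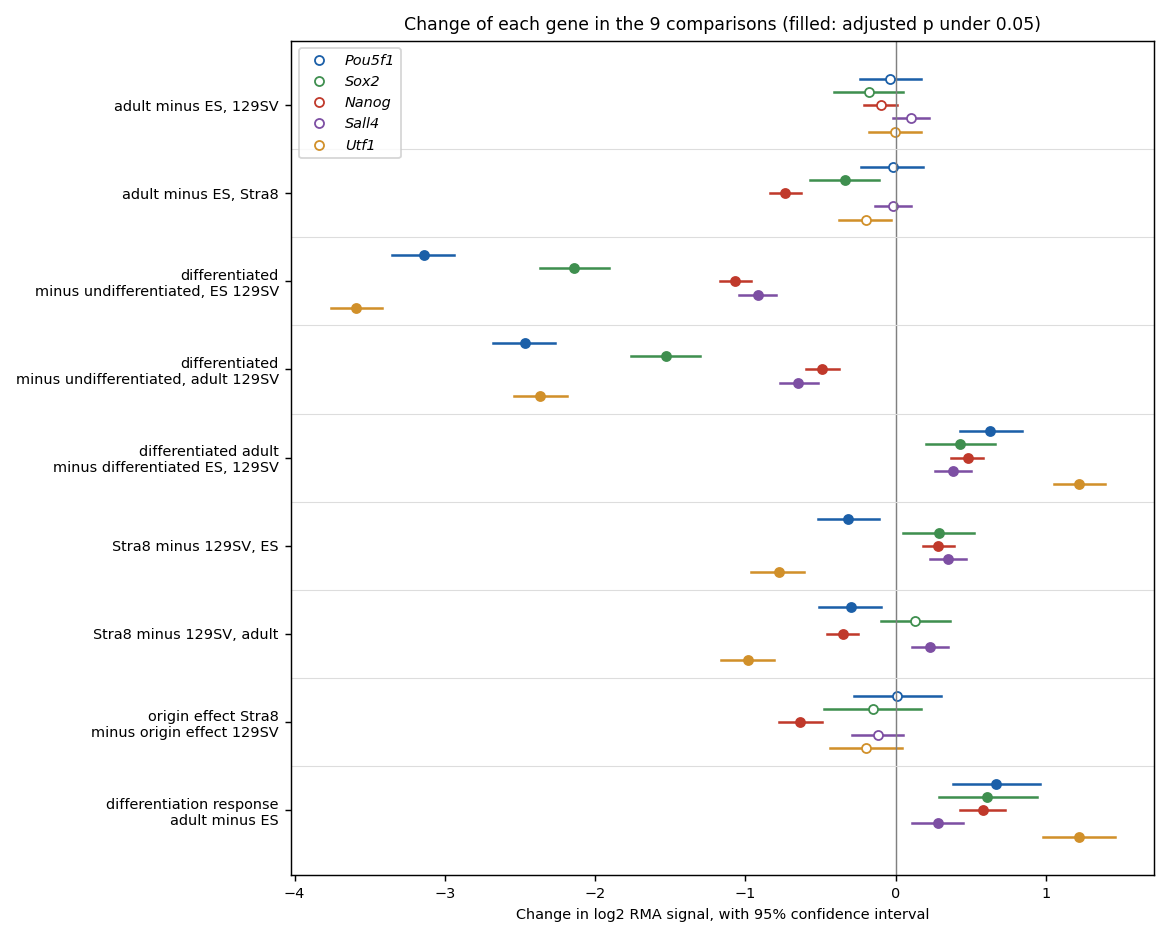
Change of each gene (points, x axis, difference of log2 signals, with 95% confidence intervals as lines) in 9 comparisons (y axis), filled where the adjusted p was under 0.05. All 5 genes lie left of 0 in both differentiation comparisons and right of 0 in the comparison of differentiated adult with differentiated ES cells.

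Undifferentiated adult and ES cells were compared within each background, the question named in the series title. In 129SV cells limma called 0 of the 5 genes, and 0 had an unadjusted p under 0.05, while 46.1% of all genes were called, 23.0% higher and 23.1% lower. Pou5f1 changed by -0.04, with a 95% confidence interval from -0.24 to 0.17, and Utf1 by -0.0043, with an interval from -0.18 to 0.17. The change was -0.18 for Sox2 (interval -0.41 to 0.05), -0.10 for Nanog (-0.21 to 0.01) and 0.10 for Sall4 (-0.02 to 0.22). The 3 adult arrays lay below the 3 ES arrays for Sox2 and Nanog and above them for Sall4. Of all genes, 56.8% showed no overlap in either direction. Sox2 was called when only these 6 arrays were fitted (-0.18, adjusted p = 0.028) and with array weights (-0.18, 0.0376), and Nanog after quantile normalisation (-0.14, 0.0151) and without adult replicate 3 (-0.14, 0.0497). Fibroblast markers fell in 15 of 18 and rose in 1 (median -0.90) in the same comparison, and endoderm markers fell in 11 of 15 and rose in 0 (median -0.48). The part of either in these values was not tested.

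In the Stra8 background Nanog was lower in adult cells. It fell by 0.74 ± 0.05, or 1.67-fold (limma adjusted p = 2.40e-08), and stood at place 140 of 19938 from the largest fall. Sox2 fell by 0.34 ± 0.11 (limma adjusted p = 0.0273). That call was lost without any 1 of ES replicates 1 (0.0589), 2 (0.0647) and 3 (0.0773) or adult replicates 2 (0.0674) and 3 (0.092). The Sox2 change itself stayed between -0.37 and -0.31 with single arrays left out. It was called at -0.34 when only these 6 arrays were fitted (limma adjusted p = 0.00135) and with array weights (3.72e-05). In the main fit 2 of 5 genes were thus called lower. Among all genes, 15.1% were called lower, 13.2% higher and 28.3% in either direction. Pou5f1 changed by -0.02 (interval -0.23 to 0.18), Sall4 by -0.02 (-0.14 to 0.10) and Utf1 by -0.20 (-0.38 to -0.03, adjusted p = 0.0732). Utf1 was called when only these 6 arrays were fitted (0.0111), with dim genes left out (0.037) and with array weights (0.00216). All 18 fibroblast markers rose in the same comparison (median 0.75), and 12 of 15 endoderm markers rose with 0 lower (median 0.86). Markers of undifferentiated ES cells fell in 7 of 10 with 0 higher (median -0.30). The part of these cell types in the fall of Nanog was not tested.

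The change between adult and ES cells differed between backgrounds for Nanog. The difference (Stra8 minus 129SV) was -0.64 ± 0.07 (limma adjusted p = 1.34e-06), where 21.8% of genes were called negative and 43.1% in either direction. For the other 4 genes it was 0.01 ± 0.14 for Pou5f1 (interval -0.28 to 0.30), -0.15 ± 0.15 for Sox2 (-0.48 to 0.17), -0.12 ± 0.08 for Sall4 (-0.29 to 0.05) and -0.20 ± 0.11 for Utf1 (-0.44 to 0.04), and none was called. Utf1 was called when only these 12 arrays were fitted (-0.20, adjusted p = 0.0188) and with array weights (-0.20, 0.0404). Fibroblast markers were positive in 17 of 18 and negative in 1 in this difference (median 1.74), and endoderm markers were positive in 11 of 15 and negative in 0 (median 1.38). The part of either in the difference was not tested. The labels do not separate cell line from origin or background, so these cannot be told apart in the Nanog result.

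Between backgrounds the 5 genes did not move in 1 direction. In ES cells, Stra8 against 129SV, the log2 change was -0.78 ± 0.08 for Utf1 (1.72-fold, limma adjusted p = 5.32e-07) and -0.32 ± 0.10 for Pou5f1 (0.0137). Sall4 was higher by 0.35 ± 0.06 (7.58e-05), Nanog by 0.28 ± 0.05 (0.000176) and Sox2 by 0.29 ± 0.11 (0.0458). All 5 were called, 3 higher and 2 lower, where 21.3% of all genes were called higher, 20.0% lower and 41.4% in either direction. The call of Sox2 was lost without any 1 of the 6 arrays (adjusted p from 0.0619 to 0.118), and that of Pou5f1 without ES 129SV replicate 1 (-0.28, 0.0587) and with arrays centred on their medians (-0.26, 0.0517). With single arrays left out the Sox2 change stayed between 0.27 and 0.31. Its lowest limma adjusted p over all alternatives was 0.000271. Fibroblast markers fell in 16 of 18 with 0 higher (median -1.12) and endoderm markers in 10 of 15 with 0 higher (median -0.40), and their part was not tested.

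In adult cells the background difference of Utf1 was -0.98 ± 0.08, or 1.98-fold lower in Stra8 (limma adjusted p = 3.01e-08). The change was -0.30 ± 0.10 for Pou5f1 (0.0147) and -0.35 ± 0.05 for Nanog (1.52e-05), while Sall4 was higher by 0.23 ± 0.06 (0.00298). Sox2 changed by 0.13, with an interval from -0.10 to 0.36, and was not called. Thus 4 of 5 were called, 1 higher and 3 lower, where 24.2% of all genes were called higher, 26.8% lower and 51.0% in either direction. Pou5f1 was not called without adult 129SV replicate 3 (-0.27, adjusted p = 0.0548). Fibroblast markers rose in 10 of 18 and fell in 3 (median 0.37), and endoderm markers rose in 10 of 15 and fell in 2 (median 0.48). Their part in these differences was not tested. The labels do not separate cell line from background, so these cannot be told apart. The same holds for cell line and origin in the comparisons of adult with ES cells.

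Other genes of the pluripotency network were taken from 5 lists. Their counts stand beside 27.3% of all genes called lower and 27.9% higher on differentiation of ES cells, and 32.2% and 27.5% for adult cells. Target genes of Pou5f1 and Sox2 fell with them: 19 of 20 were lower and 1 higher in differentiated ES cells (median -1.51), and 18 lower and 1 higher in adult cells (median -1.44). Tdgf1, a Nodal co-receptor, changed by -4.19 in ES and -2.58 in adult cells. Fgf4, a growth factor gene with a classic paired site of Pou5f1 and Sox2 in its enhancer, changed by -2.46 and -2.29. Otx2, a factor of the primed epiblast, changed by -3.20 in ES cells, and the Nodal antagonist Lefty1 by -2.70 in adult cells. The 1 gene that rose was Epas1, a hypoxia-inducible factor, by 2.32 and 2.01, and it is named after its values were seen.

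Most of the naive-state partners help to hold the ground state of ES cells. Of this list, 13 of 17 fell and 1 rose in ES cells, and 13 fell and 3 rose in adult cells (median -1.08 in each). The 1 that rose in ES cells was Tcf7l1, a repressor of the network (0.27), named after its values were seen. In adult cells Tcf7l1 fell (-0.34). The 3 that rose there, also named after their values were seen, were Stat3 (0.74), Klf5 (0.34) and Klf4 (0.33). The nuclear receptor Nr0b1, which binds Pou5f1, changed by -4.03 in ES and -2.23 in adult cells, Zscan10 by -2.62 and -2.79, and the orphan receptor Esrrb by -2.27 and -1.68. Protein partners of the core factors, many of them subunits of chromatin complexes, fell in 16 of 25 and rose in 6 in ES cells (median -0.43), and fell in 17 and rose in 4 in adult cells (median -0.49). Those with the largest falls were Dppa4 (-2.05 and -1.86), Dppa2 (-1.84 and -1.32) and the deacetylase Hdac1 (-1.65 and -1.49).

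Factors that oppose the core set or replace it on lineage exit rose in 15 of 19 and fell in 1 in ES cells (median 1.34), and rose in 11 and fell in 3 in adult cells (median 0.71). The endoderm factors Gata4 and Gata6 rose by 3.32 and 3.12 in ES and by 4.40 and 4.28 in adult cells, and Gata3, a trophectoderm factor, by 2.94 in ES cells. The 1 gene of this list that fell in ES cells was Eomes, named after its values were seen (-1.31). Paralogues of the core genes went both ways, with 5 of 21 higher and 7 lower in ES cells (median -0.03) and 6 higher and 11 lower in adult cells (median -0.20), close in ES cells to the 55.2% of all genes called in either direction. Sox17 rose by 2.32 and 3.27 and Sox7 by 1.44 and 3.44, both of them endoderm Sox genes, whereas Sox15 changed by -1.38 and -1.15. Sox7 and Sox17 are members of both lists, and Sall1 is a member of the paralogues and of the protein partners. Without the third differentiated ES array, a setting chosen after seeing the data, 19 target genes, 13 naive-state partners, 15 protein partners, 8 paralogues and 1 opposing factor fell in ES cells, and 1, 1, 6, 5 and 15 genes of these lists rose.

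**Figure D4:**
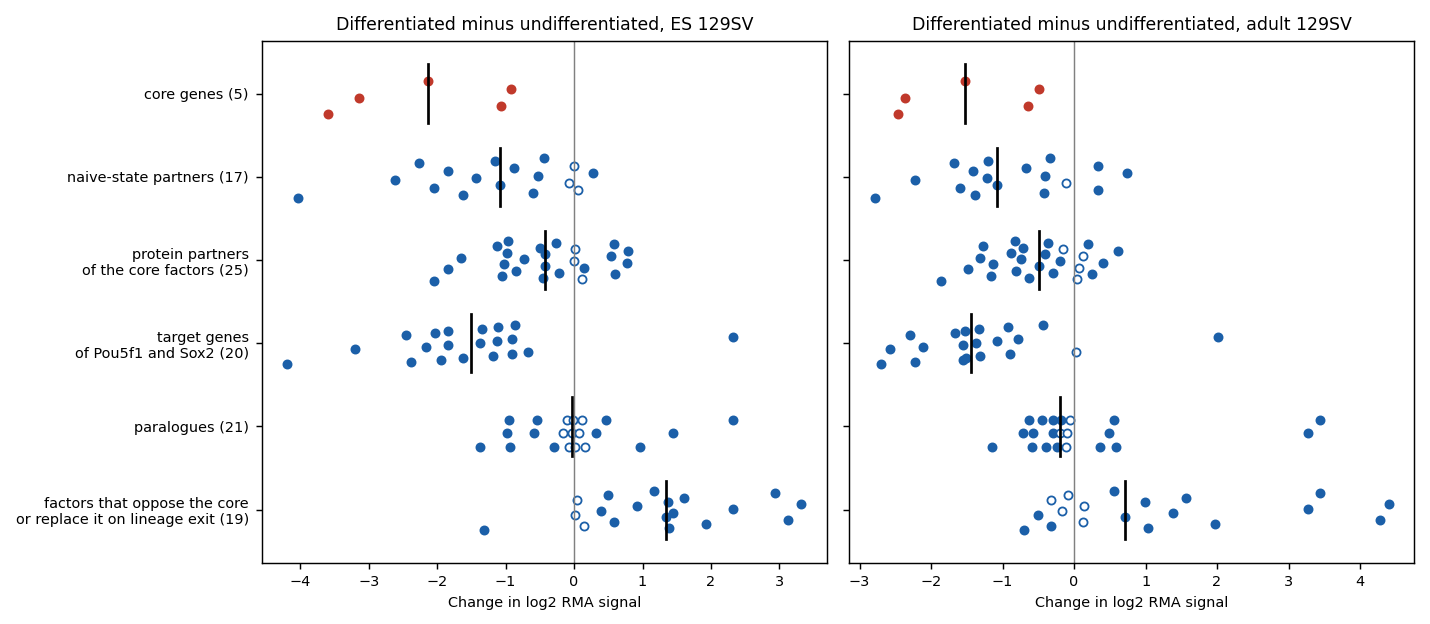
Change on differentiation (x axis, difference of log2 signals) of the 5 core genes (red) and of the genes of 5 lists (blue; y axis, number measured in brackets) in ES and adult 129SV cells; filled points were called, and black bars are medians. Target genes have medians of -1.51 and -1.44, and opposing factors of 1.34 and 0.71.

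Between undifferentiated adult and ES cells each list held genes of both directions. In the Stra8 background, where Nanog fell and 13.2% of all genes were called higher and 15.1% lower, 10 of 20 target genes were lower and 6 higher (median -0.15). The F-box gene Fbxo15 changed by -0.91 and the adhesion molecule Jam2 by -0.83, and Zic2, a zinc finger factor, rose by 0.88. Naive-state partners fell in 7 of 17 and rose in 2 (median -0.15), among them Prdm14 (-0.86), Tcl1 (-0.76) and Zfp42 (-0.65). Protein partners fell in 10 of 25 and rose in 2 (median -0.15), led by Dppa4 (-0.91), Sall1 (-0.45) and Dppa2 (-0.42). Opposing factors rose in 6 of 19 and fell in 4 (median 0.12), with Tfap2c at -1.07, Gata6 at 0.89 and Gata4 at 0.86. Of the paralogues, 6 of 21 rose and 4 fell (median 0.09), with Sall2 at 0.66, Sox11 at 0.63 and Sall3 at 0.60.

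In the 129SV background, where none of the 5 core genes was called and 23.0% of all genes were called higher and 23.1% lower, protein partners rose in 15 of 25 and fell in 3 (median 0.28), led by Gatad2a (0.96), the DNA repair factor Xpc (0.85) and Smarcd1 (0.64). Of the 20 target genes, 8 were higher and 5 lower (median 0.18), with Lefty1 at 1.51, Lefty2 at 0.94 and Jam2 at -0.85. Naive-state partners rose in 5 and fell in 6 of 17 (median -0.06), with Nr0b1 at -1.19, Tcf7l1, a repressor of the network, at 0.94 and Tbx3 at -0.75. Opposing factors rose in 4 and fell in 6 of 19 (median -0.08), with Nr2f6 at 0.94, Pax6 at 0.87 and Eomes at -0.73. Paralogues rose in 4 and fell in 5 of 21 (median 0.07), with Sox4 at -0.71, Pou2f3 at -0.61 and Sox11 at -0.57. The median change of all genes was 0.06 in 129SV and -0.0033 in Stra8 cells.

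The genes with the most similar profiles were found by the root mean square difference between group means, after each gene was centred on its mean over the 6 groups. For Pou5f1 the 4 closest were Stmn2 (0.18), Slc7a7 (0.19), Crmp1 (0.23) and Slc7a3 (0.23). For Sox2 they were Cdyl2 (0.12), Zbtb8a (0.13), Tmem69 (0.14) and Hells (0.15). Nanog was closest to Cdc5l (0.08), Piga (0.12), Lrp11 (0.12) and the homeobox gene Obox6 (0.13), and Sall4 to Chrna7 (0.06), Wdr77 (0.06), Exosc9 (0.06) and 2610524H06Rik (0.07). For Utf1 the closest were Slc7a7 (0.22), Pou5f1 (0.30), Platr8 (0.33) and Timp1 (0.40). Among the 5 genes the closest pairs were Nanog with Sall4 (0.27) and Pou5f1 with Utf1 (0.30), and the farthest was Nanog with Utf1 (0.94). The profiles were not scaled, so genes with small changes can lie close without moving alike. Between backgrounds of adult cells Nanog changed by -0.35 and Sall4 by 0.23.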

How the data were processed

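Total RNA (300 ng per array) was labelled with biotin and hybridised to Affymetrix mouse gene arrays, per the labels' protocols. RMA and Affymetrix Expression Console are named in the submitters' processing notes, and the authors deposited 1 log2 signal per probe set and array; software versions, and whether all 18 arrays were normalised together, are not given in the sources used here. Array signals can understate changes of very dim or very bright probe sets, which was not tested, and 3 arrays per group limit the precision.

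Of 35556 probe sets, 21789 had 1 symbol in the platform annotation, 1621 several and 12146 none. The 1 with the highest mean was kept per gene (19938 genes, 19856 matched to RefSeq gene IDs). One model with 6 group means was fitted with limma 3.58.1 in R 4.3.3 (12 residual and 3.78 prior degrees of freedom) and tested on simulated data. A call is an adjusted p under 0.05. Named genes are the 5 core genes, the 3 called genes with the largest change in each list for the comparisons of origin and differentiation, and the 4 closest profiles per core gene. The core genes and lists were chosen with earlier results of these data known. Samples with the same replicate number in different groups deviated together with a median correlation of 0.0287 over 45 pairs, 10 of them over 0.1 (highest 0.442). With different numbers the median was -0.00195 over 90 pairs, 16 of them over 0.1 (highest 0.307). The numbers were not taken as pairs in the main model, and a replicate block was fitted as an alternative. The alternatives were quantile normalisation, median centring, a fit to the compared groups, dim genes left out (highest group mean under 7.29), a replicate block, array weights, all probe sets, the mean of probe sets, and each array left out.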

Additional observations from a re-analysis of the deposited data

Results flagged for a closer look

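The change between adult and ES cells differed between the backgrounds for Nanog, with a tested difference of -0.64. The change on differentiation differed between adult and ES cells for Utf1 (1.22), Pou5f1 (0.67), Sox2 (0.61), Nanog (0.58) and Sall4 (0.28), each by an interaction in limma. Groups of 3 arrays were too small for the test of single outlying samples.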

How the results depend on the processing

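Each of the 45 changes of the 5 genes was recomputed under the alternatives, which gave 690 values. Of these 656 kept their direction and their side of the threshold, and 31 of the 45 changes did so throughout. With the replicate number as a block, all 45 kept both, and for example the difference in response was 1.22 for Utf1. The falls on differentiation in ES and adult cells kept all 5 calls under every alternative run. In a fit to the compared groups alone, Sox2 (-0.18) was called between adult and ES 129SV cells, as were Utf1 (-0.20) between adult and ES Stra8 cells and Utf1 (-0.20) for the difference between backgrounds, while Sox2 (0.43) lost its call between differentiated cells. Array weights called Sox2 in 129SV (-0.18), Utf1 in Stra8 (-0.20) and Utf1 for the difference between backgrounds (-0.20), and turned the uncalled Utf1 change in 129SV to 0.0023. Leaving out dim genes called Utf1 in Stra8 (-0.20). Quantile normalisation called Nanog in 129SV (-0.14) and lost Sall4 (0.23) for the difference in response. With arrays centred, Pou5f1 between backgrounds of ES cells (-0.26) lost its call, the uncalled Utf1 change in 129SV turned to 0.02 and the uncalled Pou5f1 difference between backgrounds to -0.03. The causes of these shifts were not tested.

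With single arrays left out, the changes between adult and ES 129SV cells ran from -0.08 to 0.003 for Pou5f1, -0.20 to -0.15 for Sox2, -0.14 to -0.07 for Nanog and -0.03 to 0.01 for Utf1 (sign turned to 0.0049 without ES replicate 2 and 0.01 without ES replicate 3). In Stra8 cells they ran from -0.03 to 0.002 for Pou5f1, -0.37 to -0.31 for Sox2 and -0.23 to -0.18 for Utf1. Stra8 against 129SV ran from -0.37 to -0.28 for Pou5f1 and 0.27 to 0.31 for Sox2 in ES cells, and from -0.32 to -0.27 for Pou5f1 in adult cells. The difference between backgrounds for Pou5f1 ran from -0.03 to 0.06, with -0.03 without ES 129SV replicate 1 and -0.0073 without adult 129SV replicate 1. Counts over all genes moved by more than 1.5 times in 2 cases: from 5638 to 8690 with array weights between adult and ES Stra8 cells, and from 6419 to 3537 in a fit to differentiated cells alone. Signal over background was not measured, so how far low levels after differentiation are compressed was not tested.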
